A study of Mus musculus with 6 samples.

Results

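The constitutive androstane receptor (CAR), encoded by Nr1i3, is a nuclear receptor of the liver that pairs with the retinoid X receptor and responds to drugs such as phenobarbital. Its best known mouse target is Cyp2b10, a cytochrome P450 that oxidises drugs and other foreign compounds. Cyp2b9 and Cyp2b13 are close relatives of Cyp2b10 whose mRNAs are more abundant in female than in male mouse liver. Cyp2a5 encodes coumarin 7-hydroxylase, Cyp2a4 encodes a testosterone 15-alpha-hydroxylase that is likewise more abundant in females, Cyp2a12 hydroxylates bile acids, and little is known of Cyp2a22. These 8 genes, the receptor with 3 Cyp2b and 4 Cyp2a genes, were taken by symbol from the 18444 genes that the 6 liver libraries list between them, and all 8 were found.

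The study gave mice JT003, a peptide derived from adiponectin that activates both adiponectin receptors, in a model of fatty liver disease and in a model of liver fibrosis. In the first, male C57BL/6 mice (C57BL/6J in the study's methods) aged 6 to 8 weeks at the start ate a standard diet (SD, described in the sample labels as chow) or a high-fat diet (HFD) for 16 weeks. JT003 was given at 0.5 mg/kg daily in the last 4 weeks. The labels call the HFD mice a NASH group and do not mention the methionine and choline deficient diet that the study also used, and the study's own text names the sequenced diet groups without it. Whether a library holds 1 mouse or a pool is not stated. In the second, mice of the same strain, sex and age received carbon tetrachloride (CCl4) in corn oil, or corn oil alone, for 6 weeks, and JT003 at the same dose for 3 weeks. Total liver RNA was sequenced as 1 library for each of the 6 conditions, 3 in each model, where the third group of a model is the diseased group with JT003.

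The libraries held between 19374236 counts (CCl4 plus JT003) and 20184557 counts (SD). With 1 library per condition no error between mice can be estimated. No replicate check exists either, apart from the pooled CCl4 counts described further on. Each test therefore compares 2 libraries and not 2 conditions, and every interval covers counting error at a confidence level of 95% and nothing else. Each gene had an exact binomial test on its rounded counts, with the expected share set by the scaled library sizes. A gene was called at a Benjamini-Hochberg adjusted p under 0.001 and a log2 ratio of the pair of at least 1 in size. Fold values against a library that does not list a gene are ratios to an assumed floor of 3 counts. They are not limits, since the counting interval of such a ratio reaches lower.

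The cytochrome genes lie together on chromosome 7, in the order Cyp2b10, Cyp2b13, Cyp2b9, Cyp2a4, Cyp2a5, Cyp2a22 and Cyp2a12 among themselves in the RefSeq annotation of assembly GRCm38.p6, while Nr1i3 lies on chromosome 1. Their transcripts are alike enough for reads to match more than 1 of them. Cyp2a4 and Cyp2a5 were 98.3% identical over 1738 aligned bases, and 38.0% of the 50-base stretches of Cyp2a4 also occurred in the transcript of another gene. Cyp2a12 and Cyp2a22 were 96.6% identical, and 27.5% of the stretches of Cyp2a12 were shared. Cyp2b9 and Cyp2b13 were 91.9% identical, while Cyp2b9 and Cyp2b10 were 87.9% identical. Each split of reads within these pairs is therefore uncertain, and the counts are given for single genes and also summed over Cyp2b9, Cyp2b10 and Cyp2b13, over Cyp2a4 and Cyp2a5, and over Cyp2a12 and Cyp2a22. Of the 48 values that 8 genes in 6 libraries could have, 43 were listed and 5 were not, and 40 of the listed counts were not whole numbers.

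Cyp2a12 was the most abundant of the P450 genes in every library but HFD plus JT003, where Cyp2a5 exceeded it in FPKM, a measure scaled by transcript length and library size. Cyp2a12 ran from 239 FPKM in SD to 432 FPKM in CCl4. Cyp2a5 ran over a much wider range, from 19.03 FPKM in SD to 501 FPKM in HFD plus JT003. The receptor gene Nr1i3 was lowest in SD at 55.6 FPKM and highest in HFD plus JT003 at 193 FPKM. Cyp2b9, Cyp2b10, Cyp2b13 and Cyp2a4 were each under 0.3 FPKM or not listed in both control libraries, so that their appearance elsewhere was a change from near absence. Summed over the 7 P450 genes, the level was 261 FPKM in SD, 525 FPKM in HFD and 937 FPKM in HFD plus JT003. The same sum was 400.5 FPKM in corn oil, 515 FPKM in CCl4 and 556 FPKM in CCl4 plus JT003.

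**Figure D1:**
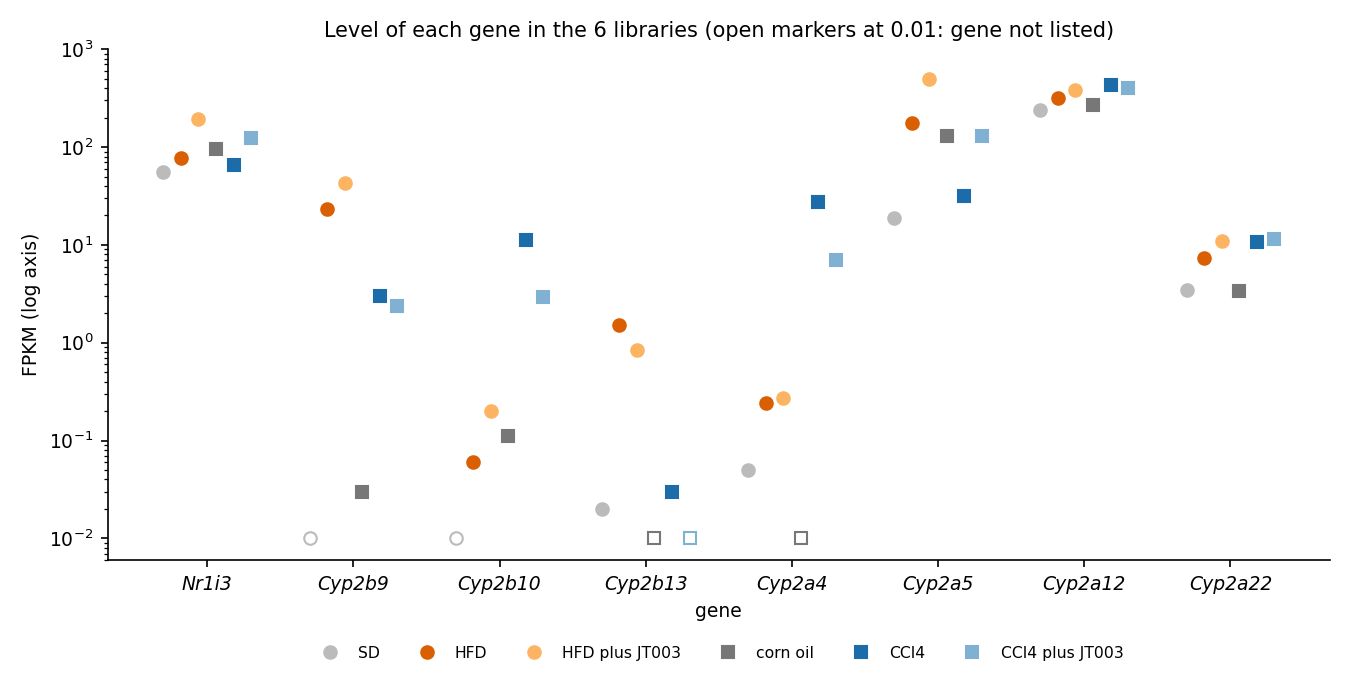
Level of each gene (FPKM, logarithmic axis) in each of the 6 libraries, 1 marker per library, circles for the diet model and squares for the CCl4 model, and open markers at 0.01 for genes that a library does not list. Cyp2b9 and Cyp2b13 are higher in the libraries from mice on HFD than in the other 4, whereas Cyp2b10 and Cyp2a4 are higher in the libraries from mice given CCl4.

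Between HFD and SD 3 of the 8 genes were called, Cyp2b9, Cyp2b13 and Cyp2a5, all higher in HFD, where 5.44% of 16973 genes were called. Adding JT003 to HFD gave 2 called genes of 8, Nr1i3 and Cyp2a5, both higher, where 1.67% of 17090 genes were called. Between CCl4 and corn oil 5 of 8 were called, with Cyp2b9, Cyp2b10, Cyp2a4 and Cyp2a22 higher and Cyp2a5 lower, where 7.26% of 17234 genes were called. Adding JT003 to CCl4 gave 3 called genes of 8, with Cyp2a5 higher and Cyp2b10 and Cyp2a4 lower, where 4.46% of 17393 genes were called. In each of these 4 comparisons the genes were called at a higher share than all genes tested, but they were chosen with earlier results of these data known. Across all genes tested, the median log2 ratio lay between -0.01 and 0.04 in every comparison.

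Set against the controls, HFD plus JT003 and SD differed by 5 called genes of 8, all higher (Nr1i3, Cyp2b9, Cyp2b13, Cyp2a5 and Cyp2a22), where 5.98% of 17012 genes were called. Against corn oil, CCl4 plus JT003 had 4 called genes of the 7 with a count in either library, all higher (Cyp2b9, Cyp2b10, Cyp2a4 and Cyp2a22), where 5.06% of 17338 genes were called. The pair of control libraries differed in Cyp2a5 alone, 1 of 8, where 5.52% of 17018 genes were called. The HFD library serves in 2 of these comparisons, as the treated library and as the base for JT003, and so does the CCl4 library, so the opposite signs that a gene shows in such a pair partly rest on 1 shared measurement. If the variation between mice were assumed, as a biological coefficient of 0.2, 3 of the 8 genes would be called between HFD and SD (1.05% of all genes tested), 0 between HFD plus JT003 and HFD (0.111%), 4 between CCl4 and corn oil (2.01%) and 2 between CCl4 plus JT003 and CCl4 (0.949%). With 0.4, 1 would be called between HFD and SD (0.0648%), 3 between CCl4 and corn oil (0.342%) and 0 in either JT003 comparison, where 0 of all genes tested would be.

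**Figure D2:**
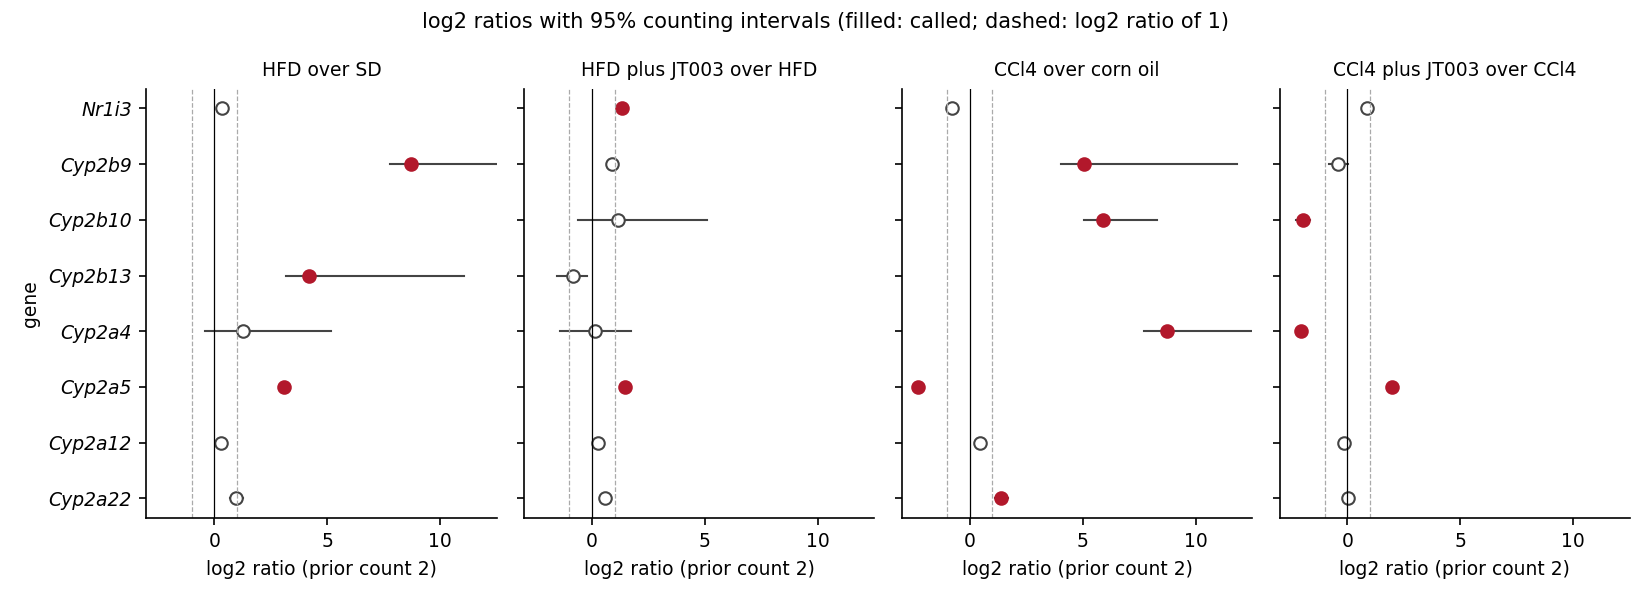
Log2 ratio of each gene in the 4 main comparisons (prior count 2), with filled markers for called genes and bars for the 95% counting interval, which are cut at the axis end where 1 library does not list the gene. Cyp2a5 lies on opposite sides of 0 in HFD over SD (3.09) and CCl4 over corn oil (-2.27), and above 0 in both JT003 comparisons.

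Nr1i3 encodes the receptor itself, so its level bears on how much CAR message the liver held, though not on whether the protein was active. In the diet model the gene (Entrez 12355) had 1572 counts in SD, 2139 counts in HFD and 5387 counts in HFD plus JT003. The HFD library exceeded SD by a log2 ratio of 0.35 (0.26 to 0.45), which was not called. HFD plus JT003 exceeded HFD 2.48-fold (2.36 to 2.61), and this rise was called. The receptor message was thus higher with JT003 than with either diet alone, and its rank by FPKM among all genes listed went from 1076 in SD and 831 in HFD to 347 in HFD plus JT003.

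In the CCl4 model Nr1i3 had 2628 counts in corn oil, 1852 counts in CCl4 and 3401 counts in CCl4 plus JT003. The CCl4 library was 1.73-fold below corn oil, a log2 ratio of -0.79 (-0.88 to -0.71) that did not reach the size needed for a call. With JT003 the level was 1.82-fold above CCl4, a log2 ratio of 0.87 (0.78 to 0.95), again not called. This difference is called, at 1.02, with the pooled CCl4 counts described further on, and at 1.11 with their remainder, where the fall with CCl4 is called too, at -1.04. CCl4 plus JT003 and corn oil differed by 0.07 on the log2 scale (-0.00 to 0.15), so the library with both treatments lay near its control. The JT003 library was the higher of its pair in both models, and whether the size of that difference was the same in both was not tested.

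A gene that overlaps Nr1i3 complicates these values. Tomm40l, which encodes a mitochondrial import pore protein, is the next coding gene after Nr1i3 and overlaps it in the RefSeq annotation of GRCm38.p6. In the GENCODE vM21 transcripts 47.8% of the 50-base stretches of Nr1i3 occurred in Tomm40l on the opposite strand, and 26.8% of its 100-base stretches did. Whether reads were assigned by strand is not stated. Tomm40l was also among the 5 genes whose levels over the 6 libraries correlated most with those of Nr1i3 (r 0.970), after Sod2 (0.986), Dnajc1 (0.985) and Cdk18 (0.983) and before D3Ertd254e (0.964), of 10278 genes compared. Its level was 38.6 FPKM in HFD against 94.8 FPKM in HFD plus JT003, and 28.2 FPKM in CCl4 against 64.4 FPKM in CCl4 plus JT003, with both differences called. The values of Nr1i3 and Tomm40l are uncertain for this reason, and the part that shared reads had in them was not tested.

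CAR rests in the cytoplasm in a complex with heat shock protein 90 and the cochaperone Dnajc7, is released through dephosphorylation downstream of the epidermal growth factor receptor, and then pairs with RXR in the nucleus. Of 11 genes for the receptor, its partners and this complex, Nr1i3 and Hsp90aa1 were the only ones called in any of the 4 main comparisons. Hsp90aa1 fell by 1.03 on the log2 scale (counting interval -1.08 to -0.98) where Nr1i3 rose, between HFD and HFD plus JT003. The other 9 genes (Rxra, Rxrb, Rxrg, Hsp90ab1, Dnajc7, Ppp1r16a, Ppp2ca, Ppp2r1a and Egfr) had log2 ratios between -0.87 for Egfr in CCl4 over corn oil and 0.36 for Rxrg in CCl4 plus JT003 over CCl4. Of 17 coactivators, corepressors and related receptors, the most abundant of which by mean FPKM over the 6 libraries, the measure used for every list, was Hnf4a, Ahr was called higher in HFD over SD (1.32) and Nfe2l2 higher in CCl4 over corn oil (1.19), with 0 called in either JT003 comparison. The called change in Nr1i3 was thus not shared by the genes for its nuclear partners.

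Cyp2b9 had the most counts of the 3 Cyp2b genes in both HFD libraries. This gene (Entrez 13094) was not listed in SD, had 856 counts in HFD and 1592 counts in HFD plus JT003. HFD was therefore 268-fold above SD against the floor of 3 counts, with a counting interval from a log2 ratio of 7.76 upward. The difference was called, and its log2 ratio was the largest of the 8 genes in that comparison. HFD plus JT003 was 1.83-fold above HFD, a log2 ratio of 0.87 (0.75 to 0.99) short of a call. It was 490.4-fold above SD against the same floor, with a counting interval from a log2 ratio of 8.64 upward. By FPKM Cyp2b9 reached 23.1 in HFD and 42.7 in HFD plus JT003, where it ranked 1387 among all genes. A P450 typical of females was thus present at a moderate level in male livers from mice on HFD and was not listed in the SD library.

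With CCl4, Cyp2b9 reached a lower level than with HFD. It had 1 count in corn oil, 113 counts in CCl4 and 86 counts in CCl4 plus JT003. CCl4 exceeded corn oil 92.5-fold, and the single count in corn oil leaves a counting interval from 16.3 to 3686. The difference was called, although the level in CCl4, 2.98 FPKM, was well under that in HFD. Its log2 ratio of 5.07 becomes 4.43 with the remainder of the pooled CCl4 counts. CCl4 plus JT003 lay below CCl4 by a log2 ratio of -0.40 with an interval (-0.83 to 0.01) that includes 0, and the sign of this ratio turns in the pooled CCl4 values given further on. Over the 6 libraries, the genes whose levels correlated most with those of Cyp2b9 were Sh3bgrl (r 0.994), Xdh (0.987), Car8 (0.985), Serpina3m (0.984) and Zfhx4 (0.983), of which none is a P450. The size of the change differed, since Sh3bgrl ran only from 24.9 FPKM in corn oil to 41.3 FPKM in HFD plus JT003.

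Cyp2b10, the classical target of CAR, behaved otherwise. In the diet model this gene (Entrez 13088) was not listed in SD and had 2 counts in HFD and 7 counts in HFD plus JT003, too few for a difference to be detectable at this depth. No detectable rise of Cyp2b10 therefore went with the called rise of Nr1i3 in HFD plus JT003. The CCl4 model was different, with 4 counts in corn oil, 421 counts in CCl4 and 108 counts in CCl4 plus JT003. CCl4 was 86.2-fold above corn oil (33.4 to 318), a called difference. Its log2 ratio of 5.90 becomes 5.46 with the pooled CCl4 counts described further on and 4.86 with their remainder. CCl4 plus JT003 was 3.93-fold below CCl4 (3.17 to 4.90), also called, and still 21.9-fold above corn oil (8.33 to 82.0). The call against CCl4 is lost, at a log2 ratio of -0.75, when the remainder of the pooled CCl4 counts replaces the CCl4 library, and holds, at -1.27, with the whole pooled counts. Nr1i3 and Cyp2b10 thus moved in opposite directions between these libraries, since Nr1i3 was lower in CCl4 than in corn oil and higher with JT003. Cyp2b10 reached 11.1 FPKM in CCl4, against 65.3 FPKM for Nr1i3 in the same library.

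Cyp2b13 was scarce in all 6 libraries. This gene (Entrez 13089) had 1 count in SD, 56 counts in HFD and 31 counts in HFD plus JT003. HFD exceeded SD 52.6-fold with a counting interval from 9.06 to 2113, and the difference was called. HFD plus JT003 lay below HFD by a log2 ratio of -0.84 (-1.56 to -0.22), which was not called, but remained 28.6-fold above SD (4.77 to 1167), a call that is lost on the scale of FPKM plus 1, at 0.85. Among the CCl4 libraries Cyp2b13 had 1 count in CCl4 and was not listed in corn oil or CCl4 plus JT003, so no ratio is given. Of its 50-base stretches, 27.3% occurred in other transcripts, against 11.2% for Cyp2b9 and 9.69% for Cyp2b10, which makes Cyp2b13 the least certain of the 3.

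Summed over Cyp2b9, Cyp2b10 and Cyp2b13, the log2 ratio was 8.19 (7.26 to 15.05) in HFD over SD, where SD had 1 count, and 0.81 (0.70 to 0.93) in HFD plus JT003 over HFD. In the CCl4 model it was 6.02 (5.22 to 8.08) in CCl4 over corn oil and -1.46 (-1.72 to -1.23) in CCl4 plus JT003 over CCl4. These 2 ratios become 5.55 and -0.79 with the pooled CCl4 counts described further on, and 4.98 and -0.29 with their remainder. The models also differed in which gene made up most of the sum. Cyp2b9 held 93.7% of the 3 genes' counts in HFD and 97.7% in HFD plus JT003. Cyp2b10 held 78.7% in CCl4 and 55.7% in CCl4 plus JT003. The HFD libraries, with and without JT003, thus carried almost only the female-typical Cyp2b9, and the CCl4 library carried mostly the CAR target Cyp2b10.

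Cyp2a5 is expressed around the central vein and is the mouse counterpart of human CYP2A6. This gene (Entrez 13087) had 670.3 counts in SD, 6101 counts in HFD and 17345 counts in HFD plus JT003. HFD exceeded SD 8.55-fold (7.89 to 9.27), and HFD plus JT003 exceeded HFD 2.80-fold (2.72 to 2.88), both called. In all, Cyp2a5 was 23.9-fold higher in HFD plus JT003 than in SD, and its rank by FPKM went from 2578 in SD through 383 in HFD to 124 in HFD plus JT003. It thus rose at both steps across the 3 diet libraries, whereas Nr1i3 was called at the second step alone.

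Cyp2a5 went the other way with CCl4. It had 4395 counts in corn oil, 1108 counts in CCl4 and 4386 counts in CCl4 plus JT003. The CCl4 library was 4.84-fold below corn oil (4.53 to 5.18), and CCl4 plus JT003 was 3.93-fold above CCl4 (3.68 to 4.20), both called. As log2 ratios these are -2.27 and 1.97, which become -2.96 and 2.65 with the pooled CCl4 counts and -3.45 and 3.14 with their remainder, so both differences are wider without the CCl4 library. CCl4 plus JT003 was close to its control, with a log2 ratio to corn oil of -0.30 (-0.36 to -0.24) that is 0.00 on the scale of FPKM plus 1. With the CCl4 library as deposited, Cyp2a5 was the only 1 of the 8 genes called higher with JT003 in both models.

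The control libraries themselves differed in Cyp2a5. Corn oil exceeded SD 7.28-fold, a log2 ratio of 2.86 (2.75 to 2.98), with 129 FPKM against 19.03 FPKM. Corn oil, with no disease model, thus came near the HFD library, which had 177 FPKM of Cyp2a5. Nr1i3 was also higher in corn oil than in SD, by 0.89 (0.80 to 0.98), without a call. The low level in SD therefore enters the fold of Cyp2a5 in HFD over SD, and how far control livers vary in this gene is unknown with 1 library of each.

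Cyp2a4 is nearly identical to Cyp2a5 in sequence, yet its counts followed another course. This gene (Entrez 13086) had 2 counts in SD, 8 counts in HFD and 9 counts in HFD plus JT003, and it was called in neither diet comparison. It was not listed in corn oil, had 943 counts in CCl4 and 231 counts in CCl4 plus JT003. CCl4 was at least 257-fold above corn oil, a called difference. That fold rests on the single CCl4 library, at 46.8 CPM (counts scaled to the total of their library). The pooled CCl4 counts held 21.2 CPM and their remainder 8.25 CPM. With the remainder the difference from corn oil is still called, but the log2 ratio is 6.85 instead of 8.75. CCl4 plus JT003 was 4.11-fold below CCl4 (3.56 to 4.77), likewise called. It was 62.6-fold above corn oil against the same floor, with a counting interval from a log2 ratio of 5.66 upward. Cyp2a4 thus moved with Cyp2b10 and against Cyp2a5 between these libraries, but its fall with JT003 is -0.85 and not called with the pooled CCl4 counts, and turns to 0.54 with their remainder, which is the direction of Cyp2a5. By FPKM it reached 27.3 in CCl4, close to the 31.5 of Cyp2a5 in the same library.

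How the reads of Cyp2a4 and Cyp2a5 were divided bears directly on this. Of the counts of the 2 genes together, Cyp2a4 held 0.298% in SD and 0.131% in HFD, and 0.0519% with JT003 added to HFD. It held 46.0% in CCl4 (Clopper-Pearson interval 43.8 to 48.2) and 5.003% in CCl4 plus JT003 (4.39 to 5.67). These intervals cover counting alone, and the share in CCl4 was 37.3% with the pooled CCl4 counts and 24.2% with their remainder, shares taken after the data had been seen. The sum of both genes does not depend on the split and gave log2 ratios of 3.09 (2.98 to 3.21) in HFD over SD and 1.48 (1.44 to 1.53) in HFD plus JT003 over HFD. In the CCl4 model the sum was lower in CCl4 than in corn oil, at -1.39 (-1.46 to -1.31), and higher in CCl4 plus JT003 than in CCl4, at 1.16 (1.08 to 1.24). These ratios become -2.28 and 2.05 with the pooled CCl4 counts, and -3.05 and 2.82 with their remainder. The directions seen for Cyp2a5 thus hold for the sum, at a smaller size in the CCl4 model.

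The likeness extends to the promoters. Over the 250 bases before the annotated start, Cyp2a4 and Cyp2a5 differed at 4 of 249 aligned bases (98.4% identical), and Cyp2b9 and Cyp2b13 at 2 of 250 (99.2%). The Cyp2b9 promoter was 78.2% identical to that of Cyp2b10, and Cyp2a12 and Cyp2a22 were 90.0% identical. All 8 genes were matched to a start in the RefSeq annotation of GRCm38.p6. Within the closest pairs counts differed in HFD, with 8 for Cyp2a4 and 6101 for Cyp2a5, and 856 for Cyp2b9 and 56 for Cyp2b13. In the CCl4 library Cyp2a4 and Cyp2a5 were close, at 943 and 1108 counts. The split of reads within these pairs is uncertain, and the part of the promoters in the counts was not tested. The sequences of the closest pairs follow, and capitals mark the bases at which a pair differs. They lie on the + strand at chr7:26306942-26307191 (Cyp2a4), chr7:26835089-26835338 (Cyp2a5), chr7:26173159-26173408 (Cyp2b9) and chr7:26061245-26061494 (Cyp2b13).
Cyp2a4: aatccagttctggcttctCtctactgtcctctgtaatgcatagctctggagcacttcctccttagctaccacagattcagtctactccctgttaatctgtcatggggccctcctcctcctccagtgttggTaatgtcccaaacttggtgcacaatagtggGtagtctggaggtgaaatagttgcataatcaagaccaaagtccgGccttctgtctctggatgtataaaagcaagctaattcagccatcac
Cyp2a5: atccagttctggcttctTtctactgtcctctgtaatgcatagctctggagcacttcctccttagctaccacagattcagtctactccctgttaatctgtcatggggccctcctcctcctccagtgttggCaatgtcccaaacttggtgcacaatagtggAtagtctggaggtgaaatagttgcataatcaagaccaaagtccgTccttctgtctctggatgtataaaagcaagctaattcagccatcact
Cyp2b9: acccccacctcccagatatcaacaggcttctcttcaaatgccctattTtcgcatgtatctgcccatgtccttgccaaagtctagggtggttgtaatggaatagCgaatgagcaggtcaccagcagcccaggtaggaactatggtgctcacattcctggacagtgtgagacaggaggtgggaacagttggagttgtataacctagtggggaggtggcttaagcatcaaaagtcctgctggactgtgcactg
Cyp2b13: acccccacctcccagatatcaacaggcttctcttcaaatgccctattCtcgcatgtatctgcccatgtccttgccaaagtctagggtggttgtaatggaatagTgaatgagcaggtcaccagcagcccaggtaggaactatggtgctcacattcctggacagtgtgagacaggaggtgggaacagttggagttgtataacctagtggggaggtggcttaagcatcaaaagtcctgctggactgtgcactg

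Proteins of the PAR bZip family, among them DBP, which is known to act on Cyp2a4 and Cyp2a5, bind sites close to TTGCATAA, read TTATGCAA on the other strand. Exact matches on either strand occurred in 228 of 32851 promoters of this length, or 0.694%. Cyp2a4 had 1, at bases 70 to 63 before the start, and Cyp2a5 had 1, at bases 71 to 64. Cyp2b10 had 1 at bases 58 to 51, and Nr1i3, Cyp2b9, Cyp2b13, Cyp2a12 and Cyp2a22 had none. A match is a description of the sequence, and binding was not measured.

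Cyp2a12 was abundant and changed little. This gene (Entrez 13085) ran between 8061 counts in SD and 14564 counts in CCl4 and was called in none of the 7 comparisons. HFD exceeded SD by a log2 ratio of 0.28 (0.24 to 0.32), and HFD plus JT003 exceeded HFD by 0.25 (0.22 to 0.29). CCl4 exceeded corn oil by 0.45 (0.41 to 0.49). CCl4 plus JT003 lay below CCl4 at -0.17 (-0.20 to -0.13), a sign that turns in the pooled CCl4 values. Its rank by FPKM stayed between 170 and 300 in the 6 libraries, so the liver kept a high Cyp2a12 message while the other Cyp2a genes moved.

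Cyp2a22 was the neighbour and closest relative of Cyp2a12 at a far lower level. This gene (Entrez 233005) had 155 counts in SD, 323 counts in HFD and 489 counts in HFD plus JT003. HFD exceeded SD by 0.96 (0.69 to 1.25), just under the size for a call, and HFD plus JT003 exceeded SD 2.92-fold, which was called. With the libraries scaled by total reads the first of these would be 1.08 and called. In the CCl4 model it had 148 counts in corn oil, 481 counts in CCl4 and 501 counts in CCl4 plus JT003. CCl4 exceeded corn oil 2.66-fold (2.21 to 3.22), a called difference, and JT003 made no detectable difference to CCl4 at this depth, with 0.05 (-0.14 to 0.23). Cyp2a22 was thus higher in all 4 treated libraries than in either control. Cyp2a12 and Cyp2a22 together, of which Cyp2a12 made up most, had log2 ratios of 0.30 (0.26 to 0.34) in HFD over SD and 0.27 (0.23 to 0.30) in HFD plus JT003 over HFD. Their sum gave 0.47 (0.44 to 0.51) in CCl4 over corn oil and -0.16 (-0.19 to -0.13) in CCl4 plus JT003 over CCl4, and the last of these turns sign in the pooled CCl4 values.

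A second set of CCl4 values was deposited with the libraries, a column of expected counts whose total is 2.97 times that of the CCl4 library. For all but 24 genes it holds at least the count of that library, and for those 24 the gap is at most 0.99, so it was taken as a sum over several CCl4 libraries of which the deposited one is part. Which libraries were summed is not stated. Taking the CCl4 library away leaves a remainder of unnamed libraries, and comparing it was chosen after the data had been seen. In CPM, Cyp2a4 was at 46.8 in the CCl4 library and 8.25 in the remainder, a 5.67-fold gap. Cyp2b10 was at 20.9 in the library and 9.48 in the remainder. Cyp2a5 was at 55.0 in the library and 25.8 in the remainder, against 226 in corn oil. Cyp2b9 was at 5.61 in the library and 2.87 in the remainder. Nr1i3 stood nearer, at 91.9 and 82.1. For Cyp2a4, Cyp2b10, Cyp2a5 and Cyp2b9 the single CCl4 library thus lay well above what the other pooled CCl4 material held.

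These values change some calls and keep others. With the remainder in place of the library, Cyp2a5 was still called below corn oil, and Cyp2b9, Cyp2b10, Cyp2a4 and Cyp2a22 were still called above it. Nr1i3 became called lower in CCl4 than in corn oil, at -1.04, and called higher in CCl4 plus JT003 than in CCl4, at 1.11. Cyp2b10 was no longer called between CCl4 plus JT003 and CCl4, at -0.75, though still called with the whole pooled counts, at -1.27, and the log2 ratio of the summed Cyp2b genes shrank to -0.29. Cyp2a4 turned from lower to higher in that comparison, at 0.54, as did Cyp2b9 at 0.63 and Cyp2a12 at 0.15. The call of Cyp2a4 as lower with JT003 therefore rests on the single CCl4 library, and that of Cyp2b10 on counts that include this library, while the higher levels of Cyp2a5 and Nr1i3 do not.

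**Figure D3:**
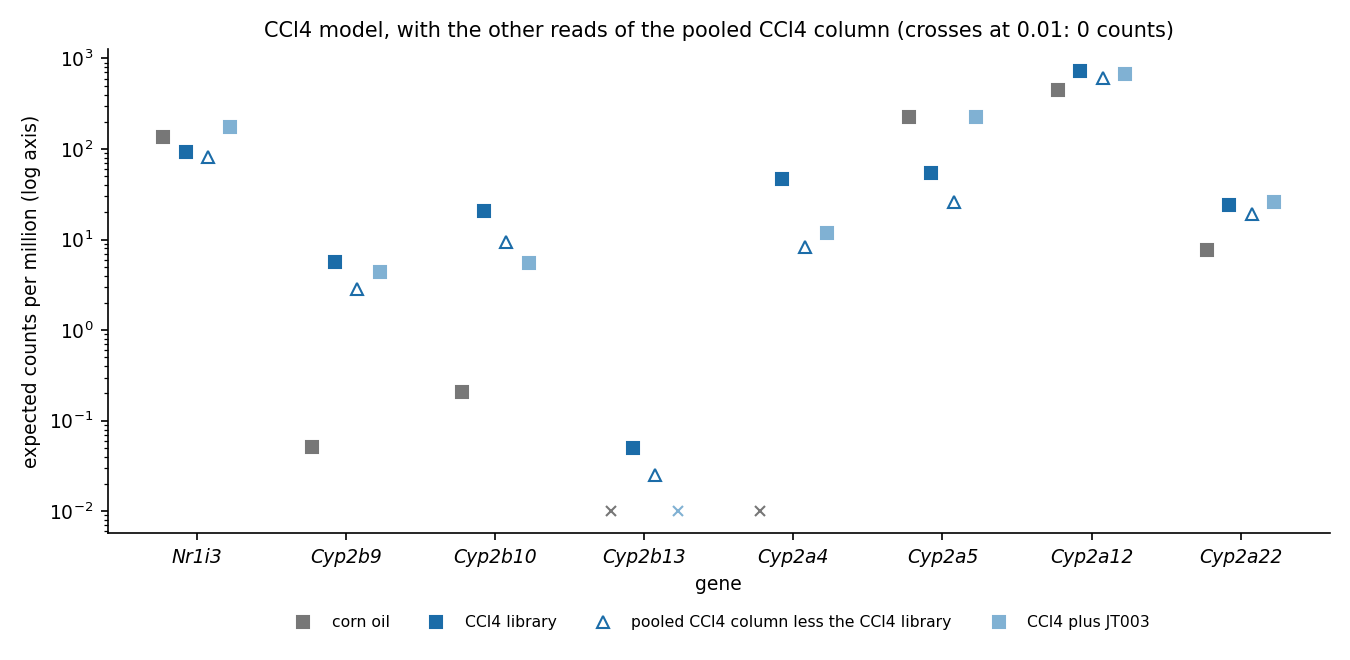
Expected counts scaled to the library total (CPM, logarithmic axis) of each gene in corn oil, the CCl4 library, the remainder of the pooled CCl4 counts, and CCl4 plus JT003, 1 marker each, with crosses at 0.01 for 0 counts. For Cyp2a4 the remainder (8.25) lies below CCl4 plus JT003 (11.9) and the CCl4 library (46.8) lies above it, while for Cyp2a5 both CCl4 points lie below both other points.

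Other genes that CAR is known to raise were read beside Cyp2b10. Of 25 such targets outside the Cyp2a and Cyp2b genes, 7 were called higher and 1 lower in CCl4 over corn oil, and 1 higher and 4 lower in CCl4 plus JT003 over CCl4. In the diet model 5 were higher and 2 lower in HFD over SD, and 2 higher and 0 lower in HFD plus JT003 over HFD. Of all genes tested, 7.26%, 4.46%, 5.44% and 1.67% were called in these 4 comparisons, in that order. The control libraries differed more than any of these pairs, with 9 targets called higher and 0 lower in corn oil over SD at a median log2 ratio of 0.92. Cyp2c55 followed Cyp2b10 closely, with 19 counts in corn oil, 442 counts in CCl4 and 114 counts in CCl4 plus JT003. Gstm3 (13.1 FPKM, 497 FPKM and 98.1 FPKM) and Akr1b7 (log2 ratios of 2.61 and -1.22) had the same 2 called directions as Cyp2b10, while Cyp2c37 was lower in CCl4 at -1.99. All these values use the single CCl4 library, with which the fall of Cyp2b10 was called. Whether the falls of these targets with JT003 hold in the pooled CCl4 counts was not tested. Cyp3a11, the most abundant of these targets by mean, was 7.97-fold higher in corn oil than in SD and went from 1599.5 FPKM in corn oil to 3389 FPKM in CCl4 and 3684 FPKM in CCl4 plus JT003 without a call for either step.

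P450 enzymes need electrons from the reductase Por and heme made through Alas1. Of 15 genes of electron supply and heme, Por alone was called in the diet model, and it went from 222 FPKM in SD to 87.3 FPKM in HFD and 203 FPKM in HFD plus JT003. Cyp2a5 and Cyp2b9 were thus high in HFD where Por was low. Among the CCl4 libraries Hmox1 was called higher in CCl4 (1.20) and Alas1 higher in CCl4 plus JT003 (1.38), and Cyb5a, the most abundant, was not called. Of 7 other Cyp2 genes, 6 of the Cyp2a and Cyp2b cluster and Cyp2ab1, which lies on another chromosome, none was called in the 4 main comparisons, the largest of them, Cyp2f2, stayed between 435 FPKM and 672 FPKM, and Cyp2b19 was not listed. The others had at most 49 counts in any library, too few to say how the cluster moved around the Cyp2a and Cyp2b genes, and Cyp2s1, named like Cyp2ab1 after its values were seen, was called higher than SD in both corn oil and HFD plus JT003.

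Because Cyp2b9, Cyp2b13 and Cyp2a4 are typical of female liver, genes of the sex difference were read beside them. In CCl4 over corn oil 14 of 17 male-biased genes were called lower and 0 higher, with a median log2 ratio of -2.78, and their summed level went from 26838 FPKM to 8050.2 FPKM. Hsd3b5 (-5.02), Susd4 (-4.84) and Elovl3 (-3.87) fell in the library where Cyp2a4 appeared, Moxd1 went from 6.33 FPKM in corn oil to not listed, and Mup20, the most abundant by mean, fell by 1.85 on the log2 scale. In HFD over SD, where Cyp2b9 and Cyp2b13 appeared, 3 male-biased genes were higher, among them Hsd3b5 at 4.14, and 4 lower, at a median of -0.13. With JT003, 1 was higher and 2 lower on HFD, and 2 higher and 1 lower on CCl4, at a median of 0.14 and a summed level of 10142 FPKM. Against corn oil, CCl4 plus JT003 had 0 of the 17 higher and 16 lower, at a median of -2.37. Male-biased genes were thus broadly lower in the libraries with CCl4, with and without JT003, and were called in both directions in HFD. The difference between the models was not tested.

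Other female-biased genes were read beside Cyp2b9 and Cyp2a4. Of 16 such genes, 3 were called higher and 2 lower in HFD over SD, 0 and 1 in HFD plus JT003 over HFD, 5 and 1 in CCl4 over corn oil, 3 and 1 in CCl4 plus JT003 over CCl4, and 5 and 0 in CCl4 plus JT003 over corn oil. Cyp3a44 was not listed in corn oil and reached 0.74 FPKM in CCl4, Cux2 reached 1.09 FPKM in CCl4 plus JT003, A1bg was called lower in HFD, and Cyp17a1, the most abundant by mean, was lower in both HFD (-3.03) and CCl4 (-2.12). Of 10 genes of the growth hormone and STAT5 axis, which sets the sex difference, 2 were higher and 0 lower in HFD over SD, 0 and 1 in HFD plus JT003 over HFD, 1 and 3 in CCl4 over corn oil, and 3 and 2 in CCl4 plus JT003 over CCl4. Bcl6, a repressor that competes with STAT5 for its sites, was called in all 4 (3.65, -1.15, 2.03 and -2.92). The summed Cyp2b genes had the same direction in every step but JT003 on HFD. With JT003 on CCl4 their log2 ratio was -1.46 with the single CCl4 library and -0.29 with the pooled remainder. Bcl6 was also called higher in corn oil over SD, where the summed Cyp2b genes had 5 counts against 1. Socs2, Cish and Onecut1 were lower in CCl4 and higher with JT003 added, and Ghr, the most abundant by mean, was called in HFD over SD (1.10) and in none of the other 3. Xist stayed between 0.01 FPKM and 0.05 FPKM in all 6 libraries, and Ddx3y, Eif2s3y, Kdm5d and Uty were listed in all 6 without a call, in libraries that the labels give to male mice. Their part in the result was not tested.

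Cyp2a5 is a gene of the pericentral hepatocyte, the cell that CCl4 injures. Of 15 pericentral genes 7 were called lower and 0 higher in CCl4 over corn oil, and their summed level was 6231 FPKM in corn oil, 1894 FPKM in CCl4 and 2997 FPKM in CCl4 plus JT003. Cyp2e1 alone made up 4420 FPKM, 1103 FPKM and 2280 FPKM of these sums. The median log2 ratio of the list in CCl4 plus JT003 over CCl4 was -0.09. Slc1a2 (-9.03), Oat (-4.78), Lhpp (-4.56) and Glul (-3.21) fell further than Cyp2a5 did (-2.27), and Cyp2e1, the most abundant, by nearly the same amount (-2.24). With JT003 added to CCl4 1 was called higher (Slc1a2, 2.45), whereas Cyp2a5 came close to corn oil, at a log2 ratio of -0.30. In the diet model 3 were higher and 3 lower in HFD over SD, at a summed level of 6855 FPKM against 5266 FPKM, and 0 were called with JT003, at 9496 FPKM. In bulk liver, fewer cells of a type and less RNA in each cell cannot be told apart. The part of zonal loss in the level of Cyp2a5 was not tested.

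Hepatocyte and other cell markers give the setting for these P450 levels. Of 9 general hepatocyte genes listed (Tf was not), Cps1 was called lower in HFD over SD and Tat lower in CCl4 over corn oil, and Alb, the most abundant, was never called. Of 13 periportal genes, led on average by Ass1, 1 was higher and 4 lower in HFD over SD, 0 and 1 in HFD plus JT003 over HFD, 1 and 3 in CCl4 over corn oil, and 1 and 0 in CCl4 plus JT003 over CCl4. Of 11 macrophage genes, led on average by Lyz2, 8 were higher and 0 lower in CCl4 over corn oil, 2 and 1 with JT003 added, 1 and 0 in HFD over SD and 0 and 2 with JT003 added. The corn oil library was itself low in them, with 9 called lower than in SD and a summed level of 38.1 FPKM, against 161 FPKM in SD and 139.6 FPKM in CCl4. Of 11 stellate cell genes, led on average by Col3a1, 6 were higher in HFD over SD and 3 in CCl4 over corn oil, and 4 were lower with JT003 in each model, against no opposite call. Of 8 endothelial genes, led by Clec4g, 1 was higher in HFD over SD, 2 were lower in CCl4 over corn oil and 0 were called with JT003. Of 7 cholangiocyte genes, led by Spp1, 4 were higher in CCl4 over corn oil, 1 higher in HFD plus JT003 over HFD and 1 lower in CCl4 plus JT003 over CCl4, and of 10 lymphocyte and neutrophil genes, led on average by Ly6g, 0 were called in the 4 main comparisons. The P450 genes studied here are hepatocyte genes. Most of the general hepatocyte genes were not called, whereas 7 of 15 pericentral hepatocyte genes were called lower in CCl4 over corn oil. The part of cell content in the P450 levels was not tested.

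Cyp2a5 is also known as a gene that NRF2 and the daily rhythm act on, so lists of NRF2 targets, acute phase genes and clock genes were read beside it. Of 12 NRF2 targets 8 were called higher and 0 lower in CCl4 over corn oil, and 0 higher and 4 lower with JT003 added, the same directions as Cyp2b10 and Cyp2a4 and the opposite of Cyp2a5 with the single CCl4 library, though Cyp2a4 turns and the call of Cyp2b10 is lost with the pooled remainder. Gsta1 went from 3.88 FPKM in corn oil to 107 FPKM in CCl4 and 21.7 FPKM in CCl4 plus JT003, and Gstm1, the most abundant, Gstm3 and Cbr3 had the same called directions. Gstm1 and Gstm3 are also among the CAR targets above, so their calls are counted in both lists. In the diet model 1 was higher in HFD over SD and 0 were called with JT003. The summed level of the NRF2 targets was 1241 FPKM in corn oil, 4571 FPKM in CCl4 and 2180.3 FPKM in CCl4 plus JT003, beside 848 FPKM, 1009 FPKM and 895 FPKM in SD, HFD and HFD plus JT003. Of 14 acute phase genes, led by Hp, 1 was higher and 0 lower in HFD over SD, 1 and 3 in HFD plus JT003 over HFD, 3 and 1 in CCl4 over corn oil and 6 and 0 in CCl4 plus JT003 over CCl4.

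Dbp, a PAR bZip factor whose kind of site has an exact match before Cyp2a4, Cyp2a5 and Cyp2b10, changed with Cyp2a5 in 3 of the 4 main comparisons. It stood at 11.8 FPKM in SD, 52.5 FPKM in HFD and 29.4 FPKM in HFD plus JT003, and at 25.3 FPKM in corn oil, 2.84 FPKM in CCl4 and 59.4 FPKM in CCl4 plus JT003. Dbp was thus low in CCl4 where Cyp2a5 was low and Cyp2a4 and Cyp2b10 were high, and it was not higher with JT003 on HFD where Cyp2a5 was. Of 16 clock and PAR bZip genes, 4 were higher and 2 lower in HFD over SD, 1 and 2 in HFD plus JT003 over HFD, 3 and 6 in CCl4 over corn oil, and 8 and 2 in CCl4 plus JT003 over CCl4. Arntl and Npas2 were called opposite to Dbp in CCl4 over corn oil and in CCl4 plus JT003 over CCl4, and Tef, the most abundant by mean, and Ciart with it. The summed level of these genes ran from 124 FPKM in CCl4 to 256 FPKM in CCl4 plus JT003. The hour at which each liver was taken is not stated, and the part of time of day in the level of Cyp2a5 was not tested.

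Levels over the 6 libraries also place these P450 genes among all others, as a description in which every correlation rests on 6 points. For Cyp2b10 the closest of 10278 genes were Fam118b (r 0.998), Pkn3 (0.998), Pkmyt1 (0.996), Cdk1 (0.995) and Cyp2a4 (0.994). Cyp2a4 thus stood nearer to Cyp2b10 than to its close relative Cyp2a5, a likeness that includes the single CCl4 library, since in the pooled remainder Cyp2a4 (8.25 CPM) lay below CCl4 plus JT003 (11.9 CPM) and Cyp2b10 (9.48 CPM) above it (5.57 CPM). Cdk1, a gene of dividing cells, was at 0.37 FPKM in corn oil, 8.19 FPKM in CCl4 and 2.13 FPKM in CCl4 plus JT003. For Cyp2a5 the closest were Ugt2a3 (0.979), D3Ertd751e (0.977), Nr1h5 (0.976), Prodh (0.974) and Irf1 (0.973). Neither Cyp2a5 nor Cyp2b10 had Nr1i3 among its 5 closest genes.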

How the data were processed

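Liver RNA of 6 conditions, 1 library each, had been sequenced on a BGISEQ-500. The authors deposited an expected count and an FPKM per gene, a listing without entries at 0, and name HISAT, Bowtie2, RSEM and build mm9 without versions or roles. FPKM was used as deposited. A deposited column of CCl4 counts, inferred to be pooled, served as an alternative. Another 7 expression columns, and the log2 fold and p-value columns of the authors' 4 comparison tables, were not used. Members and lists were chosen with earlier results of these data known.

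Expected counts were rounded, and library sizes were scaled by TMM (edgeR 4.0.16, R 4.3.3) within each model, or over all 6 libraries for corn oil over SD. For each pair an exact conditional binomial test, two-sided, was run (scipy 1.17.1, numpy 2.4.6, pandas 2.3.3, Python 3.11.15). It was adjusted by Benjamini-Hochberg over genes with a count in either library, and tested on simulated data. Log2 ratios took a prior count of 2, and intervals are Clopper-Pearson at 95%. Summed paralogs were not tested. Transcript likeness came from GENCODE vM21 transcripts (biopython 1.88), with stretches of 50 and 100 bases. Figures were drawn with matplotlib 3.10.9.

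Genes named are all 8 members, all genes of the CAR complex and sex chromosome lists, up to 4 called genes with the largest ratio and the most abundant gene of each other list, and the 5 genes nearest in level (Pearson r of log2 scaled CPM plus 1, genes with at least 100 counts in a library). Lists were CAR complex, coactivators, CAR targets, electron supply and heme, other Cyp2 genes, female-biased, male-biased, growth hormone, sex chromosomes, pericentral, periportal, hepatocyte, Kupffer, stellate, endothelial, cholangiocyte, leukocyte, acute phase, clock and NRF2. Some genes are in 2 lists. Alternatives were total reads, DESeq2 1.42.0 size factors, TMM over other libraries, a minimum of 10 counts, no threshold on the ratio, a prior count of 0.5, an assumed coefficient of variation of 0.2 or 0.4, FPKM plus 1, and the pooled CCl4 counts. The pooled counts less the CCl4 library were added after the data were seen.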

Additional observations from a re-analysis of the deposited data

Results flagged for a closer look

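Cyp2a5 was called in opposite directions in the 2 disease models. Its log2 ratio was 3.09 in HFD over SD and -2.27 in CCl4 over corn oil. The models differ in treatment, duration and control, and the control libraries differed in Cyp2a5 by a log2 ratio of 2.86. The difference between the models was not tested.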

How the results depend on the processing

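Over all alternatives and comparisons, 54 counts of members called stayed within 1.5 times the reported count and 13 did not. Among log2 ratios of single genes, 292 kept their direction and side of the call, 4 became called, 3 lost the call and 8 changed sign. The 292 include the diet comparisons with TMM over all 6 libraries, which gave the same ratios as the main scaling and so are no separate check. Among the sums, 50 stayed within their counting interval, 20 moved and 2 changed sign. Where a value changed, the cause was not tested.

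Without a threshold on the ratio, 6 genes of the 8 were called in HFD over SD, 5 in HFD plus JT003 over HFD, 5 in CCl4 plus JT003 over CCl4 and 3 in corn oil over SD. With a coefficient of variation of 0.2, 0 were called in HFD plus JT003 over HFD and 3 in HFD plus JT003 over SD. With 0.4, the calls were 1 in HFD over SD, 0 in HFD plus JT003 over HFD, 3 in CCl4 over corn oil, 0 in CCl4 plus JT003 over CCl4, 1 in HFD plus JT003 over SD, 1 in CCl4 plus JT003 over corn oil and 0 in corn oil over SD. Of all genes, between 14.3% and 29.0% were called without the threshold, between 0.111% and 2.01% with 0.2, and at most 0.342% with 0.4.

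Scaling by total reads put the median log2 ratio of all genes at 0.12 in HFD over SD, 0.23 in CCl4 over corn oil, 0.13 in HFD plus JT003 over SD and 0.32 in CCl4 plus JT003 over corn oil, where TMM left it between -0.01 and 0.04. The share of called genes that were higher went from 54.3% to 65.7%, from 66.1% to 81.7%, from 53.5% to 66.8% and from 65.0% to 86.1% in these, and from 40.7% to 30.0% in corn oil over SD. In CCl4 plus JT003 over CCl4 this share went from 42.8% to 51.1%, so the more frequent direction turned. Cyp2a4 and Cyp2a5 summed came to 3.21 in HFD over SD and -1.15 in CCl4 over corn oil, and Cyp2a12 and Cyp2a22 summed to 0.42, 0.71 and, in CCl4 plus JT003 over CCl4, -0.0918. Cyp2a22 in corn oil over SD turned to -0.0101.

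On FPKM plus 1, the Cyp2b sum was 4.65 in HFD over SD and 3.73 in CCl4 over corn oil, the Cyp2a4 and Cyp2a5 sum -1.12 in CCl4 over corn oil, and the Cyp2a12 and Cyp2a22 sum 0.42 in HFD over SD, 0.71 in CCl4 over corn oil and -0.0949 in CCl4 plus JT003 over CCl4. Cyp2b13 lost its call at 0.85 in HFD plus JT003 over SD. Cyp2a5 turned to 0.00243 in CCl4 plus JT003 over corn oil and Cyp2a22 to -0.00978 in corn oil over SD.

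With the pooled CCl4 counts, the Cyp2a4 and Cyp2a5 sum was -2.28 and the Cyp2a12 and Cyp2a22 sum 0.27 in CCl4 over corn oil. In CCl4 plus JT003 over CCl4 the Cyp2b sum was -0.79, the Cyp2a4 and Cyp2a5 sum 2.05, and the Cyp2a12 and Cyp2a22 sum turned to 0.0402, Cyp2b9 to 0.21 and Cyp2a12 to 0.0314. With those counts less the CCl4 library, chosen after seeing the data, the 3 sums were 4.98, -3.05 and 0.15 in CCl4 over corn oil. In CCl4 plus JT003 over CCl4 they were -0.29, 2.82 and, turned, 0.16, with Cyp2b9 turned to 0.63, Cyp2a4 to 0.54 and Cyp2a12 to 0.15. The share of Cyp2a4 in the counts of Cyp2a4 and Cyp2a5 in CCl4 went from 46.0% to 37.3% with the pooled counts and 24.2% with the remainder, and that of Cyp2b10 among the 3 Cyp2b genes from 78.7% to 77.7% and 76.6%, both taken after seeing the data. The share of called genes that were higher in CCl4 plus JT003 over CCl4 was 42.8% as reported, 30.4% with the pooled counts and 28.4% with the remainder.

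Depth limits Cyp2b9, Cyp2b10, Cyp2b13 and Cyp2a4 in libraries with under 10 counts. No paired analysis was possible because each condition has 1 library, which also bars leaving libraries out.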
